A study of Mus musculus with 79 samples.

Results

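The ventral hippocampus (vHipp) of mice that had gone through chronic social defeat stress (CSDS) was compared between animals given ketamine and animals given saline. Of 79 libraries in the series, 20 entered this comparison. They were chosen by their titles alone, with 10 defeated mice per treatment and 1 library per mouse. All animals were wild-type males of the outbred stock CD-1 (ICR), 9 to 10 weeks old. Both groups had been defeated on 21 consecutive days and went back to their own cage mates after each defeat. They then received one intraperitoneal injection, either racemic ketamine at 10 mg/kg or the saline vehicle, and the tissue was punched out of frozen sections 7 days later. Unstressed mice (CTRL) with the same injections gave 10 and 10 vHipp libraries. These were part of the same fit, in its gene filter and its estimate of the spread. They also served to show where the defeated vHipp differed, as did the medial prefrontal cortex (mPFC) of defeated mice (9 ketamine and 10 saline libraries). Social rank and social box (SB), the home group of 4 mice, were not analysed here because the sample labels do not give them. The study reports dominant and subordinate mice in each treatment and region, so every group here pools both ranks.

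Ketamine blocks the NMDA type of glutamate receptor. Its lasting effects have been linked to glutamate signaling through AMPA receptors, to the growth factor BDNF with its receptor TrkB, to protein synthesis under mTOR and eEF2 kinase, and to the M-type potassium channels built from Kcnq subunits. The vHipp projects to the prefrontal cortex, the amygdala and the nucleus accumbens, and it takes part in anxiety and in the control of stress hormones. A week after the injection the drug itself has left the body, and the libraries therefore measure what remained or developed later.

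Levels are given as CPM, the share of a library's counts scaled to a fixed library size, after TMM normalization, which adjusts for differences in composition. Log2 fold changes (LFC) are ketamine over saline, with their standard error (SE). The test was edgeR's quasi-likelihood test over all genes, with Benjamini-Hochberg adjustment. Because each library came from another mouse, p-values measure the spread between mice, and a lower level in bulk tissue cannot tell fewer cells from less RNA per cell.

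Total counts lay between 13659739 and 32814917 in the ketamine group and between 11782570 and 22468390 in the saline group, and their means did not differ beyond the spread (permutation test, two-sided, p = 0.572). The hippocampal transcription factor Zbtb20 stood at 251 to 664 CPM in the ketamine group and 303 to 545 CPM in the saline group, beside 60.3 to 161 CPM in the mPFC of ketamine-treated defeated mice. Markers of the subfields varied widely between mice within each group. Fibcd1, a marker of CA1 pyramidal cells, ran from 11.9 to 179 CPM in the ketamine group and from 16.6 to 203 CPM in the saline group. Prox1, a marker of dentate granule cells, ran from 53.4 to 209 CPM and from 47.8 to 243 CPM. Neither marker separated the treatments (LFC 0.14, SE 0.52, and LFC -0.17, SE 0.22).

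Of the 20 libraries, 4 stood apart. The library of ketamine mouse 11 held the most transcripts of several non-neuronal cell types. Its 12 astrocyte markers summed to 13456 CPM, while the next highest library reached 8092 CPM. Its 14 microglia markers summed to 910 CPM against at most 549 CPM elsewhere, and its 13 mitochondrially encoded genes to 74827 CPM against at most 45137 CPM. It also had the highest sum of the 21 inhibitory neuron markers (4180 CPM, next 2861 CPM) and the lowest depth of its group. The libraries of saline mice 9 and 13 held transcripts of the choroid plexus, the tissue that secretes cerebrospinal fluid into the ventricle beside the hippocampus. That of saline mouse 4 had the highest sum of erythroid transcripts (273 CPM, next 105.3 CPM), of CA1 markers (723 CPM, next 493 CPM), of class I MHC genes (215 CPM, next 202 CPM) and of interferon-stimulated and inflammatory genes (172 CPM, next 156 CPM).

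**Figure D1:**
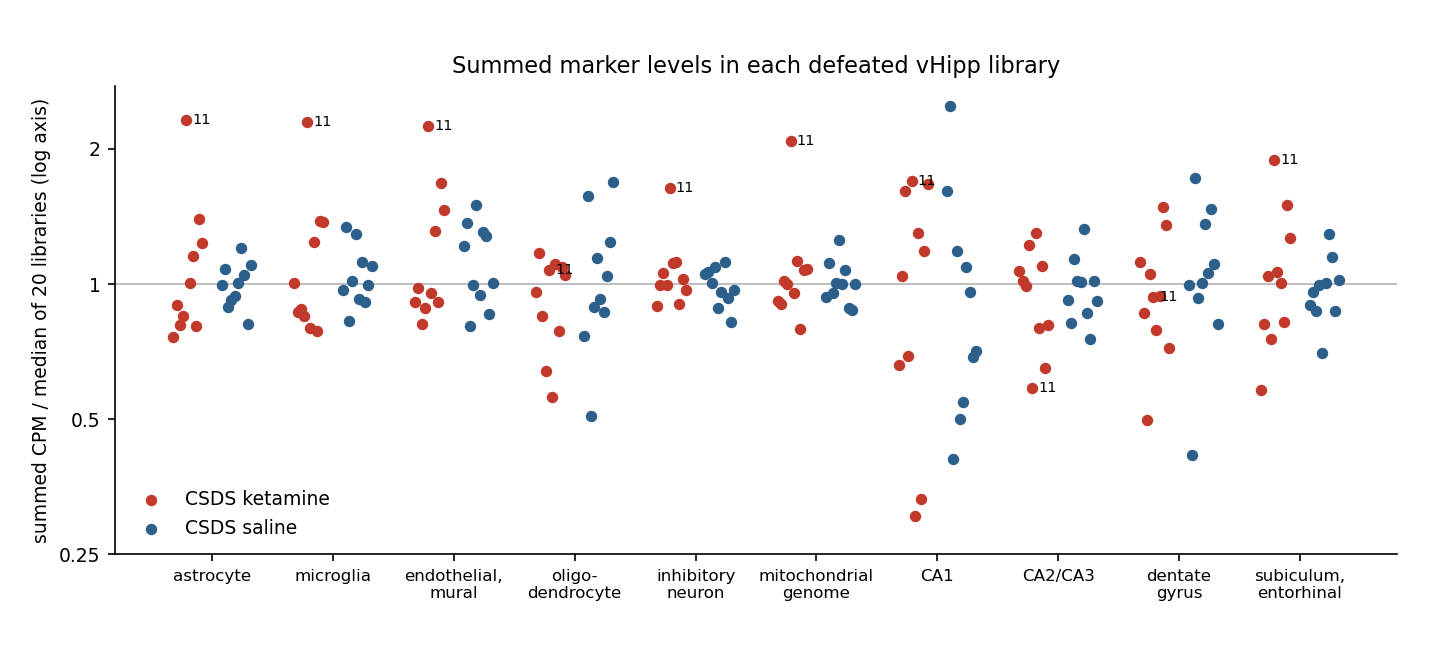
Summed CPM of marker lists in each defeated vHipp library, divided by the median of the 20 libraries, on a log axis; points are mice, red for ketamine and blue for saline. Mouse 11 of the ketamine group is labelled and lies above all other libraries for astrocyte, microglia, endothelial, inhibitory neuron, mitochondrial and subicular lists, while CA1 and dentate gyrus sums spread widely in both groups.

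The first question was whether any transcript still differed between ketamine and saline in the defeated vHipp after a week. None of 28991 genes passed an adjusted p of 0.05 with edgeR (0%), and the smallest adjusted p was 0.411. An unadjusted p under 0.05 was found for 842 genes (2.9%), of which 403 were higher (1.39%) and 439 lower (1.51%) after ketamine. If no gene differed, this threshold would let through a share of about 0.05, which is more than was found. DESeq2 and limma-voom also gave 0 genes after adjustment, with 555 and 680 genes at an unadjusted p under 0.05. Among the 15537 genes with a mean of at least 1 CPM, 190 had an unadjusted p under 0.05 (1.22%), and 83 of them were lower (0.534%) and the others higher (0.689%). Not one of these 15537 genes had 10 ketamine values entirely above (0%) or entirely below (0%) the 10 saline values. Without ketamine mouse 11 the adjusted count was again 0, and 956 of 28918 genes had an unadjusted p under 0.05.

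How large a difference could have been missed is given by the intervals. For genes with a mean of at least 1 CPM, the median absolute LFC was 0.044, and the 95% interval reached a median of 0.18 to either side. In 14439 of these genes (92.9%) the whole interval lay within a 1.5-fold difference, and in 15368 (98.9%) within a 2-fold difference. Under 1 CPM the intervals were wide, with a median half-width of 1.18, and only 26.1% of these genes were bounded within 2-fold. The statements that follow on absent differences hold within these bounds.

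The NMDA receptor, the direct target of ketamine, was described by its 7 subunit genes. None of the 7 had an unadjusted p under 0.05, where 2.9% of all genes did, and their median LFC was 0.085 (0.028 without ketamine mouse 11 and 0.19 without saline mouse 4, described above), beside 0.0033 over all genes tested. Grin1, the obligatory subunit, was at 399, 625 and 650 CPM (lowest, median and highest) in the ketamine group and at 489, 617 and 690 CPM in the saline group. Its LFC was -0.014 (SE 0.066, 95% interval -0.15 to 0.12), so the groups lay over each other. Grin2b, the subunit with high affinity for ifenprodil and slow kinetics, was at 439, 714 and 1008.15 CPM against 441, 753 and 922 CPM, with an LFC of -0.043 (95% interval -0.27 to 0.19). Grin2a, the other main forebrain partner, had an LFC of -0.059 (95% interval -0.25 to 0.14). The largest positive value of the 4 subunits followed by name was that of Grin2d, which is found mostly in interneurons, at 0.15 (SE 0.092, unadjusted p = 0.107), and without mouse 11 it was 0.095 (SE 0.09).

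Receptors downstream of glutamate release gave the same picture. Gria1 and Gria2, the main AMPA receptor subunits of pyramidal cells, had LFCs of -0.036 (95% interval -0.16 to 0.090) and -0.053 (95% interval -0.26 to 0.15). Of 22 AMPA and kainate receptor subunits and auxiliary proteins, 7 tested metabotropic receptors and 14 tested GABA-A receptor subunits, none had an unadjusted p under 0.05. In the AMPA and kainate list every one of the 22 intervals lay within a 1.5-fold difference. All 38 genes of postsynaptic scaffolds and presynaptic vesicles, among them Dlg4 (PSD-95), Shank3, Syn1 and Camk2a, were bounded in the same way, with LFCs between -0.15 and 0.15.

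The growth factor and translation pathway held 29 tested genes, with a median LFC of 0.0093. At an unadjusted p under 0.05, 1 was higher and 0 lower, where 1.39% and 1.51% of all genes were. With single libraries left out the count ran from 0 to 2. Ngfr, with an LFC of 0.12, joined it without saline mouse 4 (LFC 0.39, SE 0.19, unadjusted p = 0.0406). Bdnf was at 25.3, 34.3 and 48.6 CPM after ketamine and at 26.3, 38.6 and 56.1 CPM after saline. Its LFC of -0.10 had an interval from -0.32 to 0.11. Ntrk2, which encodes TrkB, had an LFC of 0.11 (SE 0.087), and 0.011 (SE 0.072) without mouse 11, in which it was highest. For Eef2k, the kinase that slows elongation, the LFC was -0.043 (95% interval -0.15 to 0.067), and for Mtor it was 0.011 (95% interval -0.13 to 0.16). The single member with an unadjusted p under 0.05 in the fit of all libraries was Eif4ebp1, a repressor of cap-dependent translation that mTOR switches off. It was at 0.718, 1.85 and 3.91 CPM in the ketamine group and at 0.628, 1.25 and 2.52 CPM in the saline group, with an LFC of 0.55 (SE 0.22, unadjusted p = 0.0171, adjusted p = 1.00). The ranges of the groups overlapped, and only ketamine mice 11 and 17 lay above the highest saline mouse. Without mouse 17 the LFC was 0.40 (SE 0.22, unadjusted p = 0.0760).

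Potassium and pacemaker channels were followed because the M-current sets the excitability of hippocampal pyramidal cells. None of 10 tested members had an unadjusted p under 0.05. Kcnq3, a subunit of the M-channel, was at 196, 268 and 402 CPM after ketamine and at 211, 278 and 339 CPM after saline, in overlapping ranges. It had an LFC of -0.028 (95% interval -0.23 to 0.17). Less was known of Kcnq5, at 0.19 with an interval from -0.24 to 0.62, since its level varied between 97.7 and 309 CPM within the ketamine group.

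Activity-induced and stress-related genes were at similar levels. Among 29 immediate early genes, 0 were higher and 1 was lower at an unadjusted p under 0.05, where 1.39% and 1.51% of all genes were. This was Maff, a small Maf transcription factor near the limit of detection, at 0.073, 0.306 and 0.398 CPM against 0.136, 0.398 and 0.989 CPM (LFC -0.65, SE 0.31). Without mouse 11 its unadjusted p was 0.0729, and the count became 1 higher and 0 lower, the higher one being Gadd45b, a regulator of DNA repair and demethylation (LFC 0.26, SE 0.12, unadjusted p = 0.0354). Without saline mouse 4 the LFC of Maff was -0.42 (SE 0.30), and the count was again 1 higher and 0 lower. The higher one was then Egr2, whose LFC went from 0.39 to 0.81 (SE 0.33, unadjusted p = 0.0175). Arc, Egr1, Fos and Npas4 had LFCs of -0.061, -0.030, -0.26 and 0.0019, and the interval of Fos, at a median of 1.95 CPM after ketamine, ran from -0.78 to 0.27. Of 20 tested genes of the glucocorticoid and CRH axis none had an unadjusted p under 0.05. The glucocorticoid receptor gene Nr3c1 had an LFC of -0.070 (95% interval -0.27 to 0.13), and Fkbp5, its co-chaperone and target, one of 0.012 (95% interval -0.13 to 0.15). The peptide genes Crh and Crhbp were less well bounded, at 0.37 (SE 0.35) and 0.47 (SE 0.29).

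**Figure D2:**
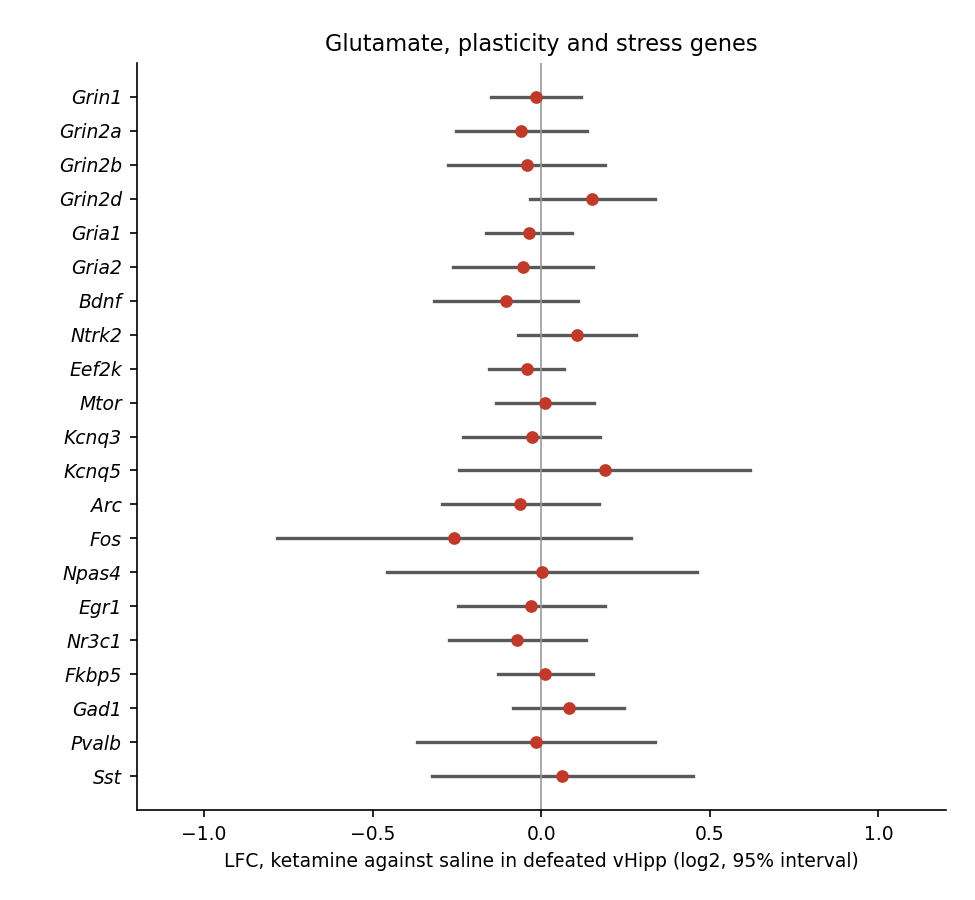
LFC of ketamine against saline in the defeated vHipp (points) with 95% intervals from edgeR (bars) for 21 genes of glutamate receptors, BDNF and mTOR signaling, potassium channels, immediate early genes, glucocorticoid signaling and interneurons. Every interval spans 0, and those of Fos, Kcnq5 and Npas4 are the widest.

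Interneurons, modulatory receptors and the circadian clock showed no member with an unadjusted p under 0.05 among 21, 25 and 18 tested genes. Gad1, the GABA-synthesizing enzyme, had an LFC of 0.081 (SE 0.082) and -0.0028 (SE 0.07) without mouse 11. Pvalb and Sst, which mark the main classes of inhibitory cells, had LFCs of -0.015 (SE 0.18) and 0.063 (SE 0.19). Among the modulatory receptors the largest LFC was that of the serotonin receptor gene Htr2c, at 0.56 (SE 0.28, unadjusted p = 0.0541, adjusted p = 1.00). Its unadjusted p was under 0.05 in 8 of the 20 fits with a single library left out, at the lowest without saline mouse 4 (LFC 0.68, SE 0.29, unadjusted p = 0.0222). Ketamine mice 3, 5 and 11 were at 46.6 to 80.2 CPM, and the other 7 at 15.7 to 33.3 CPM, within the saline range of 15.5 to 43.7 CPM. The 18 clock genes were all bounded within a 1.5-fold difference. Of 19 genes of adult neurogenesis and proliferation, 1 was higher and 0 lower at an unadjusted p under 0.05, where 1.39% and 1.51% of all genes were. This was the mitotic kinase Cdk1, at 0.0488, 0.216 and 0.880 CPM after ketamine and at 0.218 CPM or less after saline, with a median of 0.0486 CPM (LFC 1.93, SE 0.57, unadjusted p = 0.00152, adjusted p = 1.00). The other proliferation genes did not stand with it. Mki67 had an LFC of 0.10 (SE 0.27), Top2a one of 0.17 (SE 0.28) and Ccnb1 one of -0.18 (SE 0.41). Dcx, the marker of young neurons, had one of 0.12 (SE 0.094), and 0.18 (SE 0.087, unadjusted p = 0.0462) without ketamine mouse 1.

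Glial, vascular and subfield lists likewise held no member with an unadjusted p under 0.05, among 16 oligodendrocyte, 6 precursor, 12 astrocyte, 14 microglia and 16 endothelial or mural genes. The oligodendrocyte list had a median LFC of -0.21 (-0.12 without saline mouse 4), beside 0.0033 over all genes. Its summed level was 1382, 2484 and 2894 CPM after ketamine and 1258, 2432 and 4166 CPM after saline, so the groups overlapped and their medians were close. Median LFCs of 0.13 for astrocytes, 0.10 for microglia and 0.088 for endothelial and mural cells became -0.026, -0.039 and -0.053 without mouse 11. Inflammatory and interferon-stimulated genes had 0 higher and 1 lower among 25 tested, where 1.39% and 1.51% of all genes were. The lower one was Bst2 (tetherin, which holds enveloped virus at the cell surface), with an LFC of -0.83 (SE 0.28, unadjusted p = 0.00516, adjusted p = 1.00). Its highest values were those of saline mice 4 and 9, at 3.64 and 2.23 CPM, against 1.14 CPM in the highest ketamine mouse. Without saline mouse 4 the LFC was -0.50 (SE 0.25, unadjusted p = 0.0557). Without ketamine mouse 11, Oasl2 (LFC -0.54, SE 0.21) and Ifitm3 (LFC -0.57, SE 0.22), further interferon-induced genes, also had an unadjusted p under 0.05, which made 3 lower. Without saline mouse 4 their LFCs were -0.17 (SE 0.19) and -0.23 (SE 0.23), no member had an unadjusted p under 0.05, and the median LFC of the list went from -0.15 to 0.064.

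Markers of the hippocampal subfields and of the regions around them were used to see whether the punches differed between the treatments. None of the 5 CA1, 9 CA2 and CA3, 7 dentate gyrus, 6 subicular and entorhinal and 8 thalamic markers had an unadjusted p under 0.05. The interval lay within a 1.5-fold difference for 0 of the CA1, 3 of the dentate and 3 of the subicular and entorhinal markers. It did so for 8 of the CA2 and CA3 and 5 of the thalamic markers. Differences of that size in CA1, dentate or subicular content were therefore not excluded. The 7 dentate markers all had negative LFCs, from -0.24 to -0.076, and their summed level was 239, 451 and 714 CPM after ketamine and 200, 496 and 828 CPM after saline, in overlapping ranges. Of 5 amygdalar markers, 1 was higher and 1 lower at an unadjusted p under 0.05, where 1.39% and 1.51% of all genes were. The peptide gene Cartpt was at 0.367, 0.843 and 2.54 CPM after ketamine and at 0.252, 0.531 and 1.42 CPM after saline (LFC 0.82, SE 0.32), and the transcription factor Foxp2 at 0.218, 0.748 and 1.49 CPM against 0.471, 1.16 and 3.02 CPM (LFC -0.87, SE 0.40). The LFC of Cartpt was 0.58 (unadjusted p = 0.0715) without ketamine mouse 5, and that of Foxp2 -0.69 (unadjusted p = 0.0969) without saline mouse 8. The 20 tested genes of perineuronal nets and matrix, 13 class I MHC genes, 13 mitochondrially encoded genes and 5 erythroid transcripts had no member with an unadjusted p under 0.05. The erythroid list had a median LFC of -0.44 and a summed level of 24.3 to 93.3 CPM after ketamine and 41.0 to 273 CPM after saline, so the groups overlapped. Without mouse 11, 1 erythroid transcript was lower, the globin gene Hbb-bs, whose LFC of -0.52 (unadjusted p = 0.0538) became -0.61 (SE 0.27, unadjusted p = 0.0263). Without saline mouse 4 the LFC of Hbb-bs was -0.11 (SE 0.21, unadjusted p = 0.618), and the median of the erythroid list was 0.072.

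Counts of 0 were next read with each of the 20 libraries left out in turn. In 13 lists no member then had an unadjusted p under 0.05 either. These were the NMDA, AMPA and kainate, metabotropic glutamate and GABA-A receptors, the synaptic scaffold, perineuronal net, clock and mitochondrial genes, and the astrocyte, CA1, CA2 and CA3, dentate and thalamic markers. In the other 11 lists with a count of 0, leaving out a library gave at most 2 members at a time. In class I MHC these were H2-T22 and, without ketamine mouse 14, H2-D1 (LFC -0.27, SE 0.13, unadjusted p = 0.0412). Pecam1 of the endothelial list passed 0.05 without saline mouse 15 (LFC 0.96, SE 0.44, unadjusted p = 0.0329) or ketamine mouse 16. In the lists of oligodendrocytes and their precursors it was passed by Aspa, an enzyme of myelin lipid supply (unadjusted p = 0.0463 without saline mouse 7), and by Gpr17 (unadjusted p = 0.0293 without ketamine mouse 5) and Neu4 (unadjusted p = 0.0295 without ketamine mouse 16). The LFCs of Gpr17 and Neu4, 0.25 and 0.24 with all libraries, were 0.15 and 0.12 without ketamine mouse 11. Reln, which encodes the matrix protein reelin and stands in the inhibitory and the subicular list, did so with any of 7 libraries left out, at the lowest without saline mouse 13 (LFC 0.48, SE 0.21, unadjusted p = 0.0280). Its LFC of 0.39 with all libraries was 0.11 (SE 0.17, unadjusted p = 0.506) without ketamine mouse 11. That of Ndnf, another inhibitory neuron marker, went from 0.47 to -0.054 (SE 0.19) without mouse 11, and that of the microglial receptor gene Cx3cr1 from 0.22 to 0.028 (SE 0.10). Beside Cx3cr1 and Ndnf the others were Hcn3, Crhr2, Crhbp, Slc32a1, Cnr1, Adra1b, Trps1, Htr2c and Hbb-bs, with a lowest unadjusted p between 0.0222 and 0.0498 and a highest between 0.197 and 0.618.

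Of the 33 lists, that of the choroid plexus alone had most of its members lower at an unadjusted p under 0.05 after ketamine, and this rested on saline mice 9 and 13. Of its 15 markers, 12 were lower, where 1.51% of all genes were, and 0 were higher, with a median LFC of -1.70. The 3 smallest adjusted p-values of the whole comparison, 0.411 each, belonged to this list. They were those of Ttr, which encodes transthyretin, the thyroid hormone carrier of cerebrospinal fluid, of the potassium channel gene Kcnj13 and of Tmem72. Ttr was at 654 CPM in saline mouse 9 and at 66.1 CPM in saline mouse 13, and at 1.29 CPM or less in the other 8 saline mice. In the ketamine group it was at 9.50 CPM in mouse 1 and at 2.35 CPM or less in the other 9.

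All choroid plexus markers shared this arrangement in mouse 9. Its level was above that of every ketamine mouse in 15 of 15 markers, and that of mouse 13 in 11 of 15. Clic6, a chloride channel protein, was at 10.8 CPM in mouse 9 and 2.78 CPM in mouse 13, against at most 0.747 CPM in any ketamine mouse. Folr1, which encodes the folate receptor of the choroid epithelium, was at 5.70 and 0.926 CPM, against at most 0.221 CPM. Without both libraries 1 marker was lower and 1 higher at an unadjusted p under 0.05, the median LFC was -0.18, and that of Ttr went from -5.73 (SE 1.23) to 1.97 (SE 1.04). The lower one was Kcnj13, at -3.09 (SE 1.03), where saline mouse 4 had 0.854 CPM and the ketamine group at most 0.107 CPM. Without ketamine mouse 11 the count of lower markers was 7, as the unadjusted p of 5 markers moved from between 0.0314 and 0.0471 to between 0.0547 and 0.0650. With the run of 4 consecutive mouse numbers as a covariate it was 8, and with single libraries left out it lay between 3, without saline mouse 9, and 12. Ependymal Dynlrb2 (LFC -1.27, SE 0.59) and meningeal Aebp1 (LFC -0.69, SE 0.25) and Fmod (LFC -0.61, SE 0.28) were the members of adjoining tissues that were lower at an unadjusted p under 0.05. Those of Dynlrb2 and Fmod turned on single libraries, while the LFC of Aebp1 lay between -0.82 and -0.51 with each library left out. The LFC of Dynlrb2 was -0.54 (SE 0.57) without saline mouse 9, and its unadjusted p was 0.0545 without ketamine mouse 11. For Fmod the LFC was -0.54 (unadjusted p = 0.0871) without saline mice 9 and 13 and -0.42 (unadjusted p = 0.142) without saline mouse 4. Without ketamine mouse 11 the growth factor gene Igf2 joined the lower meningeal markers (LFC -0.90, SE 0.39, unadjusted p = 0.0255), making 3. Whether the punches of these mice took in ventricular tissue was not tested.

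**Figure D3:**
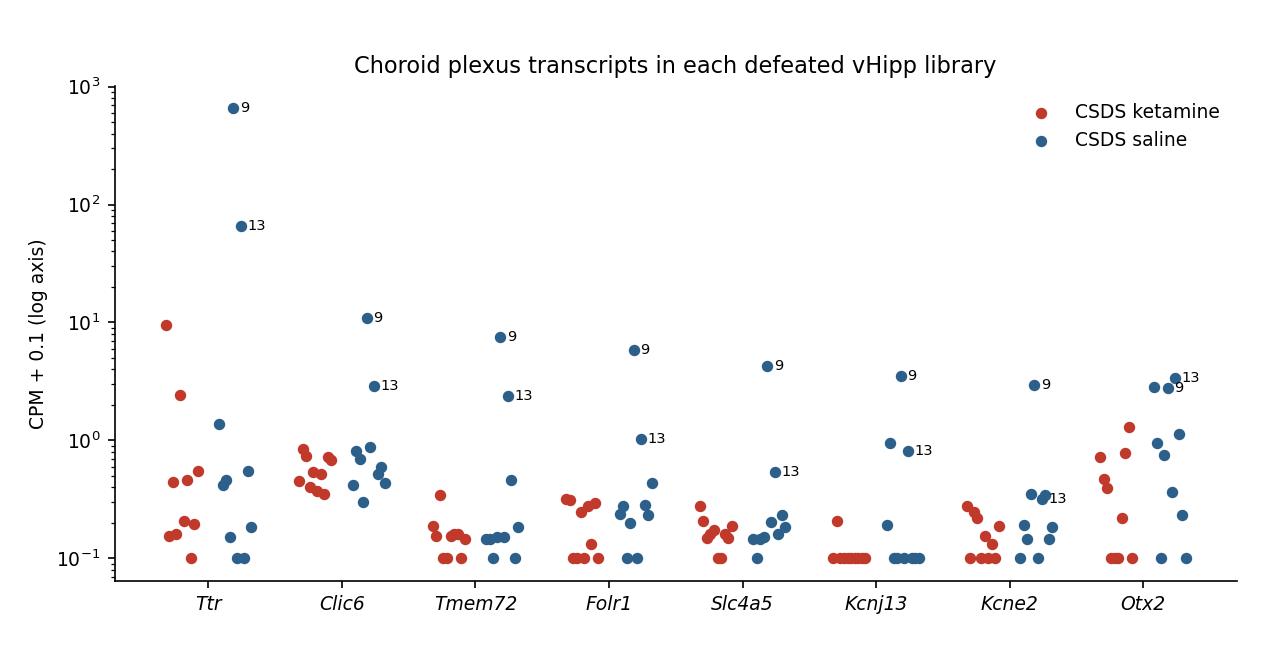
Levels of 8 choroid plexus transcripts in each defeated vHipp library, as CPM + 0.1 on a log axis, with ketamine in red and saline in blue; the saline mice 9 and 13 carry their numbers. Mouse 9 lies far above the other libraries for 7 of the 8 genes, with 654 CPM of Ttr.

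Outside the choroid plexus, the genes with the smallest unadjusted p had overlapping ranges. The 15 higher and 15 lower genes at 1 CPM or more had an unadjusted p of at most 0.0110. LFCs ran from 0.20 to 1.54 in the higher genes and from -0.33 to -5.73 in the lower ones, of which 2 were choroid plexus markers (Ttr and Clic6). These are descriptions of the top of a ranking in which no gene passed the adjusted threshold. With the run of 4 consecutive mouse numbers as a covariate, which the labels do not tie to the home groups, 30 of the 30 kept an unadjusted p under 0.05, and so did 28 without saline mice 9 and 13 and 30 without ketamine mouse 11. Among single libraries left out, saline mouse 9 ended this for Clic6 (unadjusted p = 0.0688) and saline mouse 4 for Bst2 (unadjusted p = 0.0557).

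Ptp4a3, which encodes the tyrosine phosphatase PRL-3, led the higher genes. It was at 32.4, 41.3 and 46.5 CPM after ketamine and at 28.0, 32.0 and 36.0 CPM after saline. In 8 of 10 ketamine mice the level was above the highest saline mouse, with an LFC of 0.33 (SE 0.078, unadjusted p = 0.000124, adjusted p = 0.721). In unstressed mice the LFC was 0.11 (SE 0.078), and the difference between defeated and unstressed mice did not pass (interaction, unadjusted p = 0.0524). The mPFC of the same defeated mice gave an LFC of 0.25 (SE 0.073), with 49.7 to 64.9 CPM after ketamine and 37.8 to 56.9 CPM after saline.

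Rgs9, a regulator that ends G protein signals and is best known from striatal dopamine signaling, was at 4.68, 9.72 and 18.3 CPM after ketamine and at 4.08, 6.00 and 8.46 CPM after saline (LFC 0.70, SE 0.21). Ketamine mice 11 and 17 were highest, at 15.5 and 18.3 CPM. None of the other 8 striatal markers had an unadjusted p under 0.05, and the list had a median LFC of 0.046 (0.094 without saline mouse 4). With single libraries left out, up to 2 members of the list passed 0.05. Ppp1r1b did so without ketamine mouse 12 (LFC 0.26, SE 0.12, unadjusted p = 0.0397) and Sh3rf2 without ketamine mouse 17 (LFC -1.89, SE 0.93, unadjusted p = 0.0491). Tmem163, a zinc transporter of synaptic vesicles, was higher in ketamine mice 3, 5, 6 and 11 (6.97 to 10.1 CPM), while the other 6 were between 3.52 and 4.95 CPM and the saline group between 2.22 and 4.78 CPM (LFC 0.74, SE 0.23). Smaller differences were those of Ticam1, an adaptor of Toll-like receptors (LFC 0.36, SE 0.12) and Eml3, a microtubule-associated protein (LFC 0.23, SE 0.080). Capn6, a calpain without protease activity, had an LFC of 0.71 (SE 0.25), and 7 of 10 ketamine mice were above the highest saline mouse.

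Among the lower genes, Polg2, the accessory subunit of the mitochondrial DNA polymerase, was at 1.65, 2.32 and 2.81 CPM after ketamine and at 2.11, 3.33 and 4.13 CPM after saline (LFC -0.42, SE 0.13). In 6 saline mice it was above the highest ketamine mouse, and the other 4 lay within the ketamine range. Rab40b, a small GTPase, was at 27.9, 37.3 and 50.9 CPM against 28.7, 51.0 and 58.8 CPM (LFC -0.35, SE 0.12). Sema3b, a secreted semaphorin, had an LFC of -0.65 (SE 0.24), and Adgrg2, an adhesion G protein-coupled receptor, one of -0.44 (SE 0.15). The other leading genes were Hspbap1, which binds the small heat shock protein Hsp27, at 0.27 (SE 0.093), E530011L22Rik at 0.20 (SE 0.068) and A430057M04Rik at 0.42 (SE 0.14) among the higher ones. Gm527 at -0.33 (SE 0.10), Gm4849 at -0.39 (SE 0.14), Gm17102 at -0.42 (SE 0.15), Gm15832 at -0.60 (SE 0.19) and Gm16083 at -0.72 (SE 0.27) were among the lower ones. Ccdc171 was split among the saline mice. In mice 2, 7, 9 and 13 it was between 4.63 and 8.60 CPM, while the other 6 saline mice had at most 2.41 CPM and the ketamine group at most 2.52 CPM (LFC -1.05, SE 0.33).

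**Figure D4:**
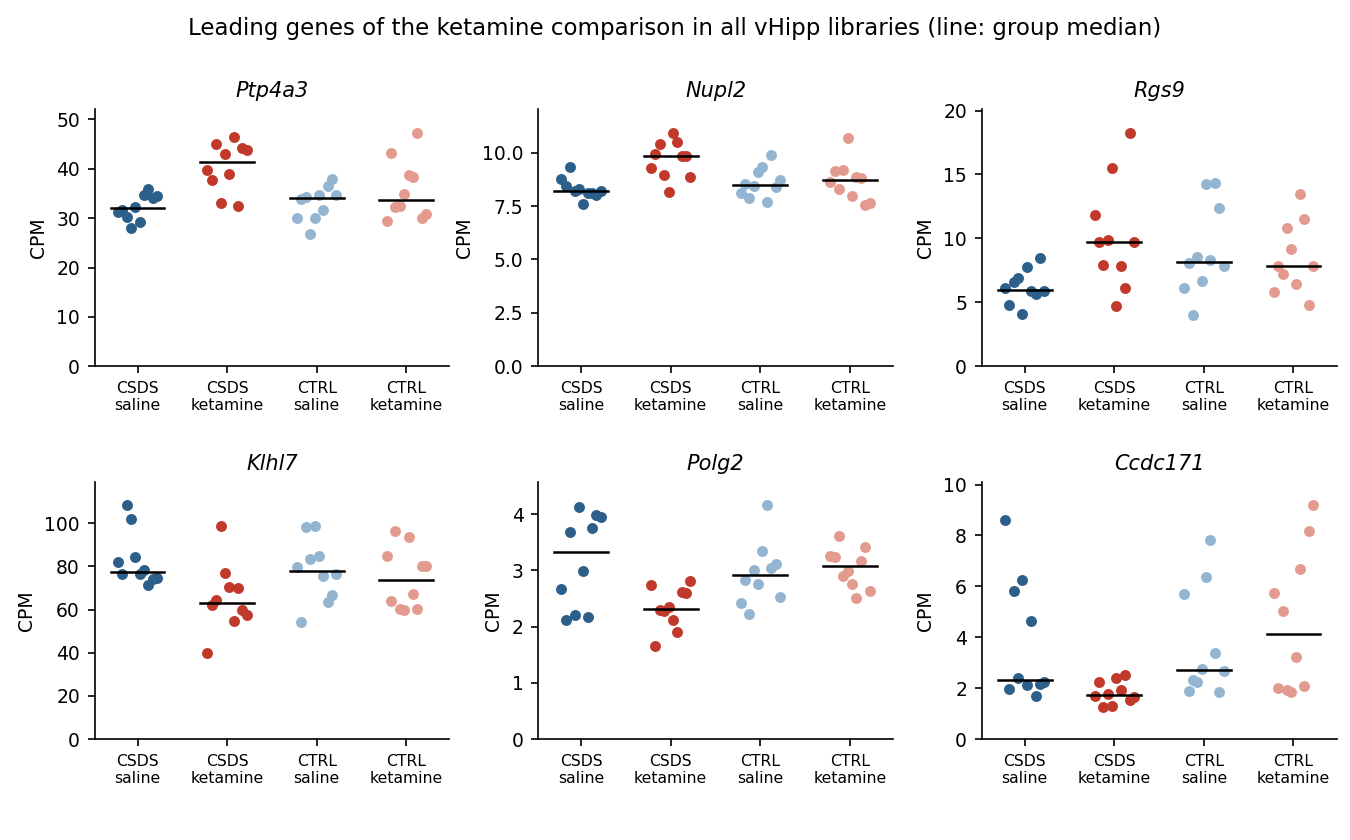
CPM of 6 genes with a small unadjusted p in all 40 vHipp libraries, by stress group and treatment; points are mice and lines are group medians. The ranges of defeated ketamine and saline mice overlap for each gene, and levels of Ccdc171 above 4.63 CPM occur in every group but the defeated ketamine group.

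Several leading genes lay next to each other on a chromosome. Of the 30, 8 had another one of the 30 within 500 kb, in 4 places of the genome (GRCm38, GENCODE M21). This was noticed after the values were seen. More widely, of the 190 genes at 1 CPM or more with an unadjusted p under 0.05, 45 (23.7%) had another such gene within 500 kb, while 2109 of all 15537 genes at that level (13.6%) had one. The genes of a neighbourhood are not independent of each other, and no test was made of these shares.

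On chromosome 15, Ptp4a3 (73723145 to 73758766, plus strand) is followed by Mroh5 (73760067 to 73839699, minus strand). Mroh5 was at 1.28, 1.97 and 3.68 CPM after ketamine and at 0.419, 1.23 and 2.18 CPM after saline (LFC 0.85, SE 0.27). Of 7 genes at 1 CPM or more within 500 kb of Ptp4a3, 2 had an unadjusted p under 0.05, where 1.22% of all genes at this level did. These were Mroh5 and Dennd3 (an exchange factor for Rab GTPases, LFC 0.21, SE 0.086). Ptk2, the focal adhesion kinase, had an LFC of 0.0070 (SE 0.049) there. On chromosome 11, Rgs9 (109225355 to 109298129) and Gm11696 (109352835 to 109363654), both on the minus strand, were higher side by side. Gm11696 had an LFC of 0.57 (SE 0.19), and the other 9 genes within 500 kb of Rgs9 had no unadjusted p under 0.05.

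On chromosome 5, neighbours went in opposite directions. Klhl7 (24100605 to 24160792), a substrate adaptor of a ubiquitin ligase, was at 40.0, 63.3 and 98.8 CPM after ketamine and at 71.2, 77.3 and 108.2 CPM after saline (LFC -0.34, SE 0.12). In 8 of 10 ketamine mice it was below the lowest saline mouse. Nupl2 (24164963 to 24184013), a protein of the nuclear pore, begins just beyond its end on the same plus strand, and it was at 8.14, 9.84 and 10.9 CPM against 7.59, 8.21 and 9.31 CPM (LFC 0.22, SE 0.064). Of 24 genes at 1 CPM or more within 500 kb of Nupl2, 4 had an unadjusted p under 0.05, where 1.22% of all genes at this level did. Beside Klhl7 these were Pus7, a pseudouridine synthase (LFC -0.21, SE 0.087), Abcb8, a transporter of the inner mitochondrial membrane (LFC -0.31, SE 0.12), and 2700038G22Rik (LFC 0.78, SE 0.30).

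On chromosome 3, Amy1 (113555710 to 113606699, minus strand) and Col11a1 (114030540 to 114220718, plus strand) had the largest differences of the higher genes. Amy1 encodes an alpha-amylase that cleaves starch, and reads of its close copies may be counted with it. Its levels formed a low set and a high set of mice with a gap between 3.49 and 8.52 CPM over all 40 vHipp libraries. In the defeated ketamine group all 10 mice were in the high set, at 8.97, 10.4 and 19.5 CPM. In the defeated saline group mice 7, 15 and 19 were in the high set, at 8.52 to 9.63 CPM, and the other 7 were between 1.81 and 2.68 CPM. The LFC was 1.54 (SE 0.41, unadjusted p = 0.000478, adjusted p = 1.00). Of the unstressed mice, 5 of 10 with ketamine and 6 of 10 with saline were in the high set, and the interaction of ketamine with stress was 1.83 (SE 0.56, unadjusted p = 0.00223, adjusted p = 1.00).

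The same mice were high in Amy1 in both regions. For 39 of 39 mice with both libraries, the mPFC level was on the same side of its own gap (4.57 to 9.85 CPM) as the vHipp level. Of 15530 genes screened, 17 (0.109%) had such a gap of at least 2-fold in both regions with every mouse on the same side, and Amy1 was the only one of them among the 30 leading genes. Others were Cwc22, a splicing factor, at 28.3 CPM or less in most defeated mice and at 183 to 753 CPM in 3 ketamine and 5 saline mice, and Srp54a, a subunit of the signal recognition particle, high in 4 ketamine and 8 saline mice. H2-T22, a class I MHC gene whose reads may be shared with its close copies, was high in 5 ketamine and 2 saline mice. Its LFC was 0.89 (SE 0.52), and it was 1.35 (SE 0.53, unadjusted p = 0.0155) without saline mouse 2 and 1.28 (SE 0.53, unadjusted p = 0.0211) without saline mouse 15. For Cwc22 the LFC was -1.13 (SE 0.84). The endothelial adhesion gene Pecam1 had a count of 0 in saline mouse 13, which allows up to 0.163 CPM, and was between 5.45 and 17.9 CPM in the other saline mice. What sets the level of these genes in a mouse was not tested.

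Col11a1, a chain of fibrillar collagen XI, was at 14.1, 34.7 and 54.3 CPM after ketamine and at 6.21, 10.4 and 45.6 CPM after saline (LFC 1.27, SE 0.43, unadjusted p = 0.00477, adjusted p = 1.00). In 7 saline mice it was below the lowest ketamine mouse, and the other 3 were mice 7, 19 and 4, at 18.2, 20.5 and 45.6 CPM. Rnpc3, which encodes a protein of the minor spliceosome and overlaps the start of Amy1 on the same strand, had an LFC of 0.30 (SE 0.11). It and Col11a1 were the only genes at 1 CPM or more within 500 kb of Amy1. Across the unstressed mice the highest levels of Col11a1, at 35.3 CPM or more, were those of ketamine mice 23 and 31 and saline mouse 22. All of them were in the high Amy1 set, which held 5 unstressed ketamine and 6 unstressed saline mice. The defeated saline mice did not all follow this. Mouse 4, with its 45.6 CPM of Col11a1, was in the low Amy1 set. Mouse 15 was in the high Amy1 set, with Col11a1 below the lowest ketamine mouse.

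**Figure D5:**
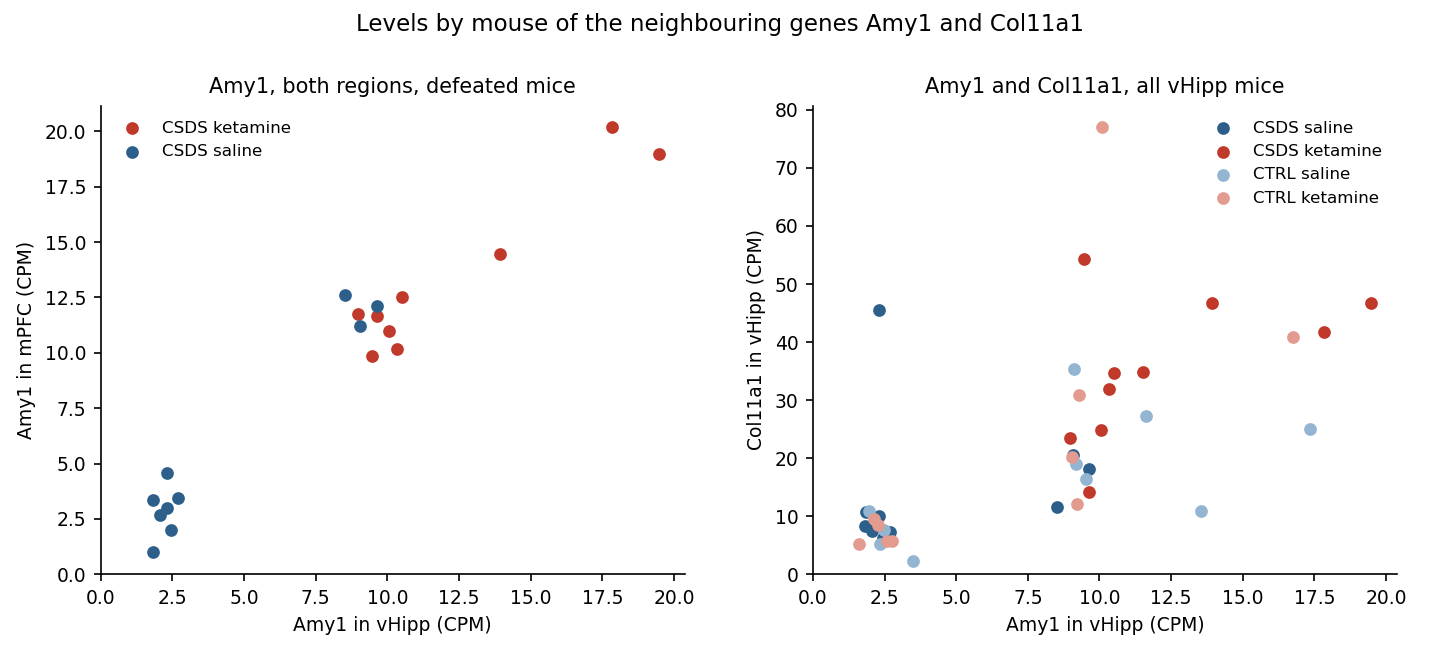
Left, Amy1 in the mPFC against Amy1 in the vHipp (CPM) of the 19 defeated mice with both libraries; right, Col11a1 against Amy1 in the vHipp (CPM) of all 40 mice, coloured by stress group and treatment. Amy1 forms a low and a high set of mice in both regions, and the 10 defeated ketamine mice of the right panel are all in the high set.

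Whether the effect of ketamine differed between defeated and unstressed mice was tested as an interaction in the same fit. None of 28991 genes passed an adjusted p of 0.05 (0%), and 823 had an unadjusted p under 0.05 (2.84%) with edgeR, 521 with DESeq2 and 770 with limma-voom. Ketamine against saline in unstressed mice gave 0 genes after adjustment and 836 before (2.88%). The 5 leading genes of the interaction were 2610316D01Rik (0.75), Sema5b (-0.75), Egfl6 (-0.86), Amy1 (1.83) and Rps26-ps1 (0.86). Sema5b, an axon guidance protein, was at 10.6, 14.7 and 18.0 CPM in defeated ketamine mice and at 9.85, 18.9 and 30.7 CPM in defeated saline mice (LFC -0.30, SE 0.15), with an LFC of 0.45 in unstressed mice. Of the 30 leading genes of the defeated comparison, 14 had an unadjusted interaction p under 0.05. Since they were chosen on libraries that enter the interaction, this count is not an independent test.

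Whether the effect differed between the vHipp and the mPFC of defeated mice was tested in a fit over the 39 libraries of both regions. None of 28951 genes passed an adjusted p of 0.05 (0%), and 750 had an unadjusted p under 0.05 (2.59%) with edgeR and 459 with DESeq2. With the mouse as a replicate block, which pairs the regions of 19 mice, the counts were 0 and 617 of 28872 genes (2.14%). The leading genes were Fap, a protease of fibroblasts (difference of LFCs -1.04), 5930420M18Rik (0.56), Gm38192 (0.59), Cabyr (0.77) and Dlx2, a homeobox gene of interneurons (0.39). In the mPFC itself ketamine against saline gave 0 genes after adjustment and 936 before (3.23%), or 273 of the 15692 genes at 1 CPM or more (1.74%). Of the 30 leading genes of the vHipp, 11 had an unadjusted p under 0.05 in the mPFC, each in the same direction. Among them were Ptp4a3, Mroh5, Amy1, Rgs9, Capn6, Klhl7, Rab40b, Ccdc171, Gm15832 and Gm16083. The mPFC libraries came from the same mice, and the count therefore describes the same animals a second time and is not a replication in others.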

How the data were processed

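The authors punched vHipp and mPFC from frozen sections, made stranded mRNA libraries and deposited raw counts per gene and library on GRCm38. Per the labels, bcl2fastq 2.20.0.422 (CASAVA) was used, while the aligner and the counter are not given in the sources used here. The study's methods state that libraries with poor RNA and a single outlier, not named, were left out. Of 55471 gene identifiers, 55144 matched a symbol in GENCODE M21.

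Genes with more than 10 counts in total and detected in more than 3 libraries were kept. The main test was edgeR 4.0.16 (TMM, quasi-likelihood, two-sided, Benjamini-Hochberg over all genes tested) on 40 vHipp libraries in 4 groups, and for the region difference on the 39 libraries of defeated mice. Intervals are 95% from the fit, and limits for a count of 0 are 3 counts and cover counting error only. In the most alike pair of libraries the counts differed 6.44 times more than counting error, and no libraries were identical. Mouse numbers mark the same mice in both regions. Deviations from the group means correlated with a median of 0.23 within mice (19 mice, 10309 genes, 15 of them over 0.1) and -0.015 between mice.

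The comparison, the 33 gene lists and the tests were chosen with earlier results of these data known. Named genes were the 15 higher and 15 lower genes of smallest unadjusted p at 1 CPM or more, list members with an unadjusted p under 0.05, a set of genes of ketamine and stress biology, the 3 largest LFCs each way, the 5 leading genes of the interaction and region tests, list extremes and tissue markers. Members that are not reported here are counted in the lists and among the leading genes but not named. Other genes were named after their values were seen, and so was the search for neighbouring genes. Alternatives were DESeq2 1.42.0, limma-voom (limma 3.58.1), RLE, no filter, filterByExpr, the run of 4 mouse numbers as covariate, the 20 libraries alone, saline mice 9 and 13 left out, each library left out, and a mouse block. The models were tested on simulated data in R 4.3.3.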

Additional observations from a re-analysis of the deposited data

Results flagged for a closer look

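In groups of 10 mice, a value was picked out when its gap to the nearest other value was a larger share of the range of its group than Dixon's 95% critical value. Such a value was found 14 times in 110 groups, where about 1 in 20 groups would give 5.5. Some genes were named for their extreme values and the groups share libraries, so 5.5 is not a chance expectation for them. In ketamine mouse 11, Grin2d was at 35.9 CPM (next 27.5), Ntrk2 at 949 CPM (next 640), Gad1 at 586 CPM (next 409) and Grin1 at 399 CPM (next 564), and the same library had the highest glial and mitochondrial sums. In saline mouse 9, Ttr was at 654 CPM (next 66.1) and Clic6 at 10.8 CPM (next 2.78), the choroid plexus transcripts described above. Ttr was also high in ketamine mouse 1, at 9.50 CPM (next 2.35). In saline mouse 4, Col11a1 was at 45.6 CPM (next 20.5) and Bst2 at 3.64 CPM (next 2.23). Hist1h2al, a histone gene whose reads may be shared with its near-identical relatives, was at 7.19 CPM in saline mouse 13, while the next saline mouse had 0.0604 CPM. Its LFC of 1.02 (SE 1.06) was among the 3 largest positive ones at 1 CPM or more, and it was 6.01 (SE 1.63, unadjusted p = 0.000668) without saline mouse 13 and 0.60 without ketamine mouse 1. The other single values were Kcnq3 at 402 CPM in ketamine mouse 12 (next 299.5), Gm16083 at 1.91 CPM in ketamine mouse 14 (next 0.980) and Capn6 at 0.157 CPM in saline mouse 10 (next 0.851). The library of ketamine mouse 16 was the deepest, with 32814917 counts (next 22393004). What set these values apart was not tested.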

How the results depend on the processing

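No setting tried for the defeated vHipp, the interaction or the region difference gave a gene with an adjusted p under 0.05. What moved was the count at an unadjusted p under 0.05. For the defeated vHipp (842 of 28991 genes with edgeR, 2.9%) it was 555 with DESeq2 (1.91%) and 489 with DESeq2 and the run as covariate (1.69%). Filters test fewer or more genes. The count was 275 of 18024 with filterByExpr (1.53%), 1415 of 38108 with no filter (3.71%) and 544 of 26416 with the 20 libraries alone (2.06%). It lay between 789 and 992 when each library was left out. For the interaction (823, 2.84%) it was 521, 487, 262 and 1338 under the first 4 of these settings (1.80%, 1.68%, 1.45% and 3.51%). For the region difference (750, 2.59%) it was 459 with DESeq2 (1.59%) and 203 with filterByExpr (1.11%). With the mouse as a replicate block, which pairs both regions, the region count was 617, and no call changed.

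Without saline mice 9 and 13 the LFC turned for Ttr (1.97), Slc4a5 (0.076), Calml4 (1.27), Sst (-0.014), Fkbp5 (-0.013), Mtor (-0.034), Ptk2 (-0.025) and Npas4 (-0.088). With limma-voom it turned for Calml4 (0.025), Sst (-0.0019), Pvalb (0.022), Mki67 (-0.086), Top2a (-0.00027) and Npas4 (-0.045). Npas4, at 0.0019, was also -0.0015 with DESeq2, -0.0010 with filterByExpr, -0.0038 with no filter, -0.00031 with RLE and -0.0058 with the 20 libraries alone. With single libraries left out, the LFC crossed 0 for Calml4 (-1.99 to 0.48, the latter without saline mouse 9), Ndnf (-0.054 to 0.58, the former without ketamine mouse 11), Fibcd1 (-0.056 to 0.44), Mki67 (-0.094 to 0.22), Ptk2 (-0.021 to 0.023), Egr1 (-0.071 to 0.046), Fkbp5 (-0.019 to 0.051), Gad1 (-0.0028 to 0.12), Gria1 (-0.073 to 0.0028), Grin1 (-0.049 to 0.036), Grin2b (-0.11 to 0.013), Kcnq3 (-0.11 to 0.0096), Mtor (-0.042 to 0.045), Npas4 (-0.11 to 0.13), Pvalb (-0.094 to 0.073) and Sst (-0.068 to 0.16). Further markers turned too. Without ketamine mouse 11 these were Slc1a2 (0.19 to -0.0057), Gfap (0.18 to -0.020) and Aqp4 (0.21 to -0.14). Without ketamine mouse 17, Sh3rf2 went from 0.18 to -1.89. Of the values counted for single genes, 73 turned and 3020 kept their direction. Leaving ketamine mouse 11 or saline mouse 4 out of the lists was chosen after seeing the data. Depth limits genes under 1 CPM most, where 5.0% had an interval within 1.5-fold.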
